A study of Mus musculus with 2 samples.

Results

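The genes described are those of the cytosolic ribosomal proteins, the protein building blocks of the ribosomes that translate nuclear-encoded mRNA. They were chosen by symbol alone: names of the Rpl, Rps and Rplp families and Rpsa, without names ending in -ps and without the Rps6k kinases, with at least 50 unique molecular identifiers (UMIs, each standing for 1 captured RNA molecule) summed over both libraries. Of 90 matching symbols, 85 passed, among 55357 genes in the tables. They comprise 34 genes of the small subunit (Rps names and Rpsa), 48 of the large subunit (Rpl names) and the 3 genes of the P stalk, Rplp0, Rplp1 and Rplp2. Rpl3l was the member nearest the threshold, with 69 UMIs. Rpl6l, with 24 UMIs, was the nearest symbol outside it, and Rps3a2, Rps12l1, Rpl10l and Rpl39l had 0 UMIs in either library, where 3 counts, the limit that a count of 0 allows, would be 0.0331 UMIs per 1000000 UMIs (CPM) in the library labelled knockdown and 0.0718 in the control library.

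A ribosome has a small subunit that reads the mRNA and a large subunit that joins amino acids. Each carries a set of proteins made in near-equal numbers, and the P stalk is the arm of the large subunit that recruits the elongation factors. Many mRNAs of ribosomal proteins and of translation factors begin with a run of pyrimidines, the 5′ terminal oligopyrimidine (TOP) tract, through which TOR signalling and the protein Larp1 control their translation and stability. In the brain these mRNAs are present in all cells, and ribosomes in neuronal processes and perisynaptic glia serve local protein synthesis.

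The study compared hippocampal nuclei by single-nucleus RNA sequencing in Bcas2F/F mice, in which loxP sites flank Bcas2, a gene for a spliceosome component. The library labelled knockdown came from mice injected with AAV2/9-Syn-cre, an adeno-associated virus in which, going by its name, a synapsin promoter drives Cre recombinase, so that Cre is intended for neurons. The control library came from Bcas2F/F mice injected with AAV-vehicle. For this library the title names the floxed allele but the genotype field says WT, which the labels do not settle. Age, sex and the number of mice behind each library are not given, and there is 1 library per group. No test could therefore be made, and every interval below is an exact 95% interval of counting error only, which holds nothing of the spread between animals.

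Depth differed: 90594923 UMIs over 16693 barcodes in the library labelled knockdown, with 4399 in the median barcode, and 41781481 UMIs over 12621 barcodes in the control library, with 2567 in the median barcode. They shared 56 barcode sequences. After filters, 12359 nuclei of the library labelled knockdown and 11196 of the control library remained. Bcas2 itself stood at 41.9 CPM (interval 40.6 to 43.2) in the library labelled knockdown and at 30.7 CPM (29.1 to 32.5) in the control library, so its level did not bear out the label; the labels do not say which part of the gene is deleted, and a 3′ count outside that part would check nothing. In DG granule-like nuclei, the dentate gyrus neurons, Bcas2 stood at 33.6 CPM in the library labelled knockdown and 33.9 CPM in the control library. The class mix differed widely. Nuclei resembling oligodendrocytes numbered 2086 in the library labelled knockdown and 7059 in the control library, and clusters left without a name held 23.8% of nuclei in the library labelled knockdown and 1.55% in the control library. Nuclei were clustered without the ribosomal protein genes and classes were named, as "-like", by marker genes; only the 7 classes with at least 100 nuclei in each library were compared between libraries.

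Ribosomal protein UMIs made up 0.276% of all UMIs in the library labelled knockdown (250116 UMIs) and 0.328% in the control library (136869 UMIs). A nucleus thus carried few of them, with a median of 15 in the library labelled knockdown and 9 in the control library after filters. Among the 10 members with the most UMIs were Rpl6, Rpl41, Rps14, Rps21, Rplp1, Rps2, Rps15, Rps13 and Rpl9, and the 10 together held 27.5% of member UMIs in the library labelled knockdown and 23.8% in the control library. Rpl6, a large subunit protein, stood at 147 CPM in the library labelled knockdown and 133 CPM in the control library over all barcodes. These levels are UMIs per gene, not adjusted for length, so they are compared between libraries and classes and not between genes. A further 321 pseudogenes named -ps after these genes held UMIs equal to 2.33% of member UMIs in the library labelled knockdown and 1.81% in the control library. The labels do not say how reads matching both a gene and such a copy were counted, so single members can be in error by reads of their copies.

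Among named classes of each library with at least 20 nuclei, the summed level was lowest in pyramidal-like, subiculum or cortex excitatory-like and GABAergic-like nuclei. It was highest in vascular, meningeal and microglial classes. In the library labelled knockdown it was 1952 CPM in CA3 pyramidal-like, 1980 CPM in CA1 pyramidal-like, 2048 CPM in subiculum or cortex excitatory-like and 2195 CPM in GABAergic-like nuclei. At the other end stood microglia-like nuclei with 5280 CPM, fibroblast-like nuclei with 7846 CPM and 44 endothelial-like nuclei with 14044 CPM. The control library ran the same way at its ends, although it had few neurons of these kinds: 1855 CPM in 31 CA1 pyramidal-like and 1959 CPM in 37 GABAergic-like nuclei, against 4475 CPM in fibroblast-like, 4600 CPM in microglia-like and 7811 CPM in 93 endothelial-like nuclei. Oligodendrocyte-like nuclei lay between, at 4819 CPM in the library labelled knockdown and 3662 CPM in the control library. Not all neurons were at the low end. DG granule-like nuclei ranked 7 from the lowest in the library labelled knockdown and 6 in the control library. Cajal-Retzius-like nuclei ranked 9 in both. The order in the middle differed: OPC-like (oligodendrocyte precursor) and astrocyte-like nuclei were above DG granule-like nuclei in the library labelled knockdown and just below them in the control library, where the 3 classes lay within 2445 and 2551 CPM. Neighbours whose counting intervals overlapped included fibroblast-like and microglia-like nuclei in the control library (4329 to 4624 CPM for fibroblast-like, 4515 to 4686 CPM for microglia-like) and CA1 and CA3 pyramidal-like nuclei in the library labelled knockdown. In the endothelial-like and fibroblast-like classes the median nucleus lay well under the summed level. It stood at 7234 CPM in the library labelled knockdown and 4697 CPM in the control library for endothelial-like nuclei, and at 4673 CPM in the library labelled knockdown and 3027 CPM in the control library for fibroblast-like nuclei.

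**Figure D1:**
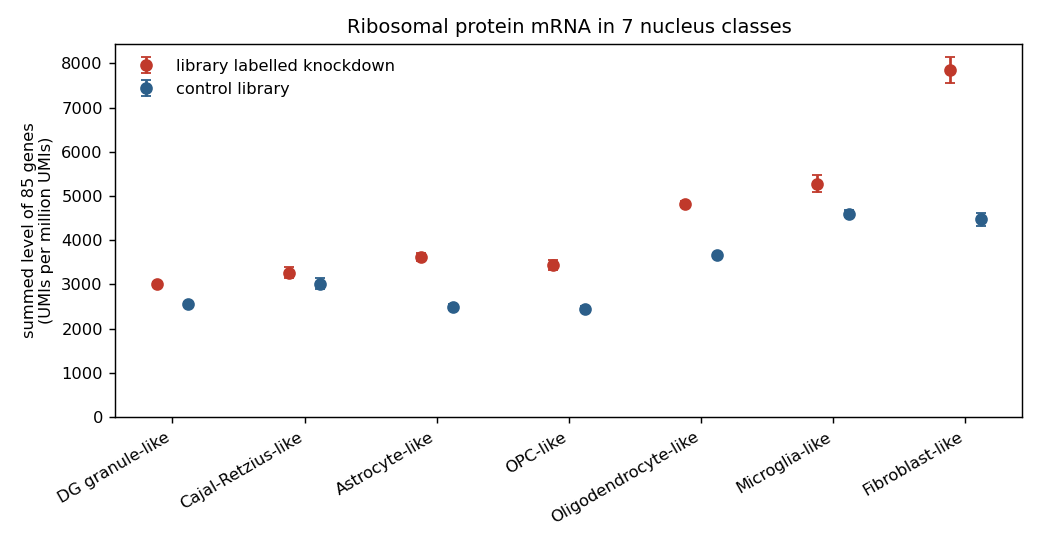
Summed level of the 85 ribosomal protein genes (y axis, CPM of the class) in the 7 compared nucleus classes (x axis), with exact 95% counting intervals. In each class the library labelled knockdown, on the left, lies above the control library, least in Cajal-Retzius-like nuclei (3259 and 3016 CPM) and most in fibroblast-like nuclei (7846 and 4475 CPM).

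Ribosomal protein genes as a group stood higher in the library labelled knockdown in all 7 compared classes, those with at least 100 nuclei of each library, while over all nuclei they stood lower. Not every smaller class went the same way. Striatal medium spiny neuron-like nuclei stood at 2367 CPM (2299 to 2437, exact 95% counting interval) in the library labelled knockdown (289 nuclei) and 2750 CPM (2578 to 2931) in the control library (67 nuclei), with intervals apart. Subiculum or cortex excitatory-like nuclei, at 2048 CPM in the library labelled knockdown and 2112 CPM in the control library, and choroid plexus-like nuclei, at 3123 CPM in the library labelled knockdown and 3232 CPM in the control library, were also lower in the library labelled knockdown, with overlapping intervals. Of 15 named classes with at least 20 nuclei of each library, the library labelled knockdown was higher in 12, with intervals apart in 8, and lower in 3, with intervals apart in 1. Over all nuclei the summed level was 2623 CPM in the library labelled knockdown and 3297 CPM in the control library, the reverse of each compared class; the control library holds more nuclei of the oligodendrocyte-like and microglia-like classes, whose levels are high. In DG granule-like nuclei it was 3013 CPM in the library labelled knockdown (2026 nuclei) and 2551 CPM in the control library (550 nuclei), a log2 ratio of the library labelled knockdown over the control library of 0.24 (0.21 to 0.27). In Cajal-Retzius-like nuclei, named after the early-born neurons of the outer layer, it was 3259 CPM in the library labelled knockdown and 3016 CPM in the control library, a log2 ratio of 0.11 (0.03 to 0.20). The intervals of the levels there, 3136 to 3386 CPM in the library labelled knockdown and 2889 to 3147 CPM in the control library, overlapped. DG granule-like and Cajal-Retzius-like nuclei were the 2 compared classes of neurons, and both log2 ratios depend on which nuclei enter. The Cajal-Retzius-like value was -0.05 over nuclei called male, that is with a Y-linked UMI and no Xist UMI, and 0.43 in the cluster that holds most of its control nuclei, taken alone. The DG granule-like value was 0.14 over nuclei called female, with at least 2 Xist UMIs and no Y-linked UMI.

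The ratios in glia and fibroblasts were in part larger. Astrocyte-like nuclei had 3615 CPM in the library labelled knockdown and 2480 CPM in the control library, a log2 ratio of 0.54 (0.49 to 0.60). OPC-like nuclei had 3435 CPM in the library labelled knockdown and 2445 CPM in the control library, which gives a log2 ratio of 0.49, interval 0.43 to 0.55. Both sat about 0.5 log2 units above the control library, more than DG granule-like nuclei did. Oligodendrocyte-like nuclei had a log2 ratio of 0.40 (0.37 to 0.42), and microglia-like nuclei one of 0.20 (0.14 to 0.26), from 5280 CPM in the library labelled knockdown and 4600 CPM in the control library. Fibroblast-like nuclei had the largest of the 7, 0.81 (0.74 to 0.88). The fibroblast-like value dropped to 0.47 with a looser filter on nuclei and to 0.45 with a stricter one, and the OPC-like value to 0.22 with the nuclei marked as doublets kept. The microglia-like value was 0.05 under TMM scaling, which moved the median of all genes there to -0.16, and 0.10 over nuclei with 2000 to 8000 UMIs. The oligodendrocyte-like value was 0.15 under TMM scaling, where the median of all genes moved to -0.10.

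Counts of single members tell these classes apart. A member was called when its ratio was at least 1.5-fold, among members with at least 50 UMIs in the class over both libraries, with 0.5 UMI added. In fibroblast-like nuclei 43 of 62 members tested were called higher and 0 lower, where 12.3% of all genes tested were called higher and 14.3% lower. In OPC-like nuclei 36 of 74 members were higher and 2 lower, against 11.5% and 6.96% of all genes. In astrocyte-like nuclei 31 of 75 members were higher and 0 lower, against 14.4% and 6.22% of all genes. In these 3 classes the share of members called higher, 69.4%, 48.6% and 41.3% in the order given, was well above that of all genes.

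In the other 4 classes the share called higher was near that of all genes or below it, so the higher calls say nothing particular of the members there. The share of members called lower was under that of all genes in each of them. It was 2.41% in DG granule-like, 1.2% in oligodendrocyte-like, 2.53% in microglia-like and 0% in Cajal-Retzius-like nuclei. Under TMM scaling the calls became 5 of 83 higher and 3 lower in oligodendrocyte-like nuclei, against 17.6% and 15.5% of all genes under that scaling, and 9 of 79 higher and 4 lower in microglia-like nuclei, against 11.8% and 17.5% of all genes. In DG granule-like nuclei 8 of 83 members were higher and 2 lower, against 9.21% and 5.78% of all genes. In oligodendrocyte-like nuclei 21 of 83 were higher and 1 lower, against 24.8% and 7.37% of all genes. In microglia-like nuclei 15 of 79 were higher and 2 lower, against 15.9% and 11% of all genes. In Cajal-Retzius-like nuclei 4 of 43 were higher and 0 lower, against 15.4% and 15.3% of all genes. The log2 ratio was above 0 for 64 of 83 members in DG granule-like nuclei, beside 56.1% of all genes tested there, and for 75 of 83 in oligodendrocyte-like nuclei, beside 61.8% of all genes. It was above 0 for 55 of 79 members in microglia-like nuclei, beside 49.3% of all genes, and for 26 of 43 in Cajal-Retzius-like nuclei, beside 48.9%.

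The median log2 ratio of the members tested lay above that of all genes tested in each class. It was 0.23 for members and 0.05 for all genes in DG granule-like nuclei, 0.51 and 0.04 in astrocyte-like nuclei, and 0.52 and 0.02 in OPC-like nuclei. It was 0.37 for members and 0.15 for all genes in oligodendrocyte-like nuclei and 0.83 and -0.08 in fibroblast-like nuclei. The gap between members and all genes, which a change of scaling leaves nearly in place, was thus widest in fibroblast-like nuclei (0.92) and narrowest in Cajal-Retzius-like (0.16), DG granule-like (0.18) and microglia-like nuclei (0.20).

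**Figure D2:**
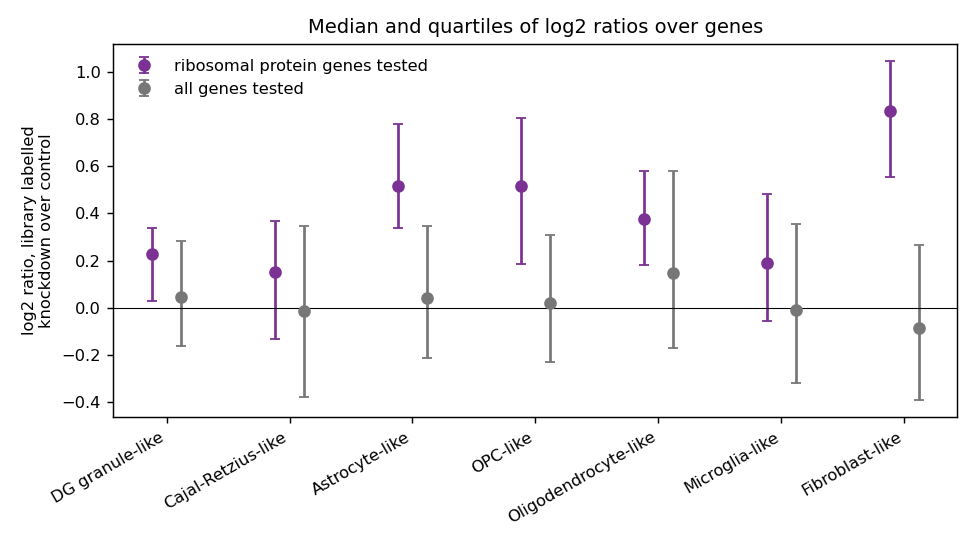
Median log2 ratio, library labelled knockdown over control library (y axis), of the ribosomal protein genes tested (left point) and of all genes tested (right point) in each compared class (x axis), with quartiles over genes as bars. The median of the members is above that of all genes in each class, and the quartile ranges are apart only in fibroblast-like nuclei, where the medians are 0.83 and -0.08.

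By subunit, the small and large subunit genes had like ratios in most classes. Their summed log2 ratios were 0.27 (0.22 to 0.32) for the small and 0.19 (0.15 to 0.23) for the large subunit in DG granule-like nuclei, 0.55 and 0.50 in astrocyte-like nuclei, and 0.38 each in oligodendrocyte-like nuclei. OPC-like nuclei were the exception by value, with 0.65 (0.56 to 0.74) for the small and 0.32 (0.24 to 0.40) for the large subunit. In them 20 of 30 small subunit members and 13 of 41 large subunit members were called higher, beside 11.5% of all genes tested. There the ratio of small to large subunit UMIs was 0.837 in the library labelled knockdown and 0.665 in the control library. The control value was the lowest of the 7 control classes; in DG granule-like nuclei the same ratio was 0.770 in the library labelled knockdown and 0.727 in the control library. Among the small subunit members of OPC-like nuclei, Rps4x stood at 48.8 CPM in the library labelled knockdown and 20 CPM in the control library, and Rps7 at 32.2 CPM in the library labelled knockdown and 14.5 CPM in the control library.

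The P stalk genes split. Rplp1 and Rplp2 encode the acidic proteins that form the outer stalk as dimers, and Rplp0 the protein that anchors them to the large subunit. Rplp1 stood at 80.0 CPM in the library labelled knockdown and 45.1 CPM in the control library in DG granule-like nuclei, a log2 ratio of 0.82 (0.60 to 1.06). In astrocyte-like nuclei it stood at 108 CPM in the library labelled knockdown and 43.4 CPM in the control library, with 1.31 as log2 ratio (interval 0.95 to 1.68). In nuclei of the oligodendrocyte-like class it stood at 145 CPM in the library labelled knockdown and 70.6 CPM in the control library, a log2 ratio of 1.03 (0.89 to 1.17). Rplp1 and Rplp2 were each called higher in 6 of 7 classes, all but the Cajal-Retzius-like one.

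Rplp2 in fibroblast-like nuclei, at 197 CPM in the library labelled knockdown and 62.9 CPM in the control library, had a log2 ratio of 1.64 (1.10 to 2.20). Rplp0 did not go with its partners. In oligodendrocyte-like nuclei Rplp0 stood at 16.6 CPM in the library labelled knockdown and 24.1 CPM in the control library, a log2 ratio of -0.53 (-0.92 to -0.18), within the 1.5-fold bound. In DG granule-like, microglia-like and fibroblast-like nuclei its log2 ratio was -0.35, -0.36 and -0.29, with intervals that include 0. Only in OPC-like nuclei was Rplp0 called higher, with 20.5 CPM from 21 UMIs in the library labelled knockdown and 11.1 CPM from 30 UMIs in the control library. Rplp0 also varied between classes more than most members, by 2.17 log2 units in the library labelled knockdown and 2.10 in the control library, highest in fibroblast-like and lowest in DG granule-like nuclei in both.

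A few members recurred across classes. Rpl37, a large subunit protein, was the 1 member called higher in all 7 compared classes, among 43 members tested in all 7; of all 3764 genes tested in all 7, 14 were. It stood at 46.7 CPM in the library labelled knockdown and 29.2 CPM in the control library in DG granule-like nuclei, with 0.67 (0.40 to 0.97) as log2 ratio. In oligodendrocyte-like nuclei Rpl37 stood at 89.8 CPM in the library labelled knockdown and 52.3 CPM in the control library, at a log2 ratio of 0.78, with an interval of 0.61 to 0.95. Its ratios ran between 0.66 in microglia-like and 1.43 in fibroblast-like nuclei. Rps21, of the small subunit, was called higher in 6 of 7 classes, Rps14, of the same subunit, in 5 of 7 and Rpl32 in 5 of the 6 in which it was tested. Rps21 was the exception to Rplp1 and Rplp2 in that it was called in Cajal-Retzius-like nuclei, at 104 CPM in the library labelled knockdown and 65.6 CPM in the control library, and missed the bound in DG granule-like nuclei with 0.51. Of the 83 members tested in at least 1 class, 64 were called higher in at least 1, 6 were called lower in at least 1, and 15 were called in none, beside 35.4% of all genes called higher and 25.2% called lower in at least 1 class. A gene tested in more classes has more chances of a call; among genes tested in all 7, 81.4% of the 43 members and 31.3% of all genes were called higher in at least 1.

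**Figure D3:**
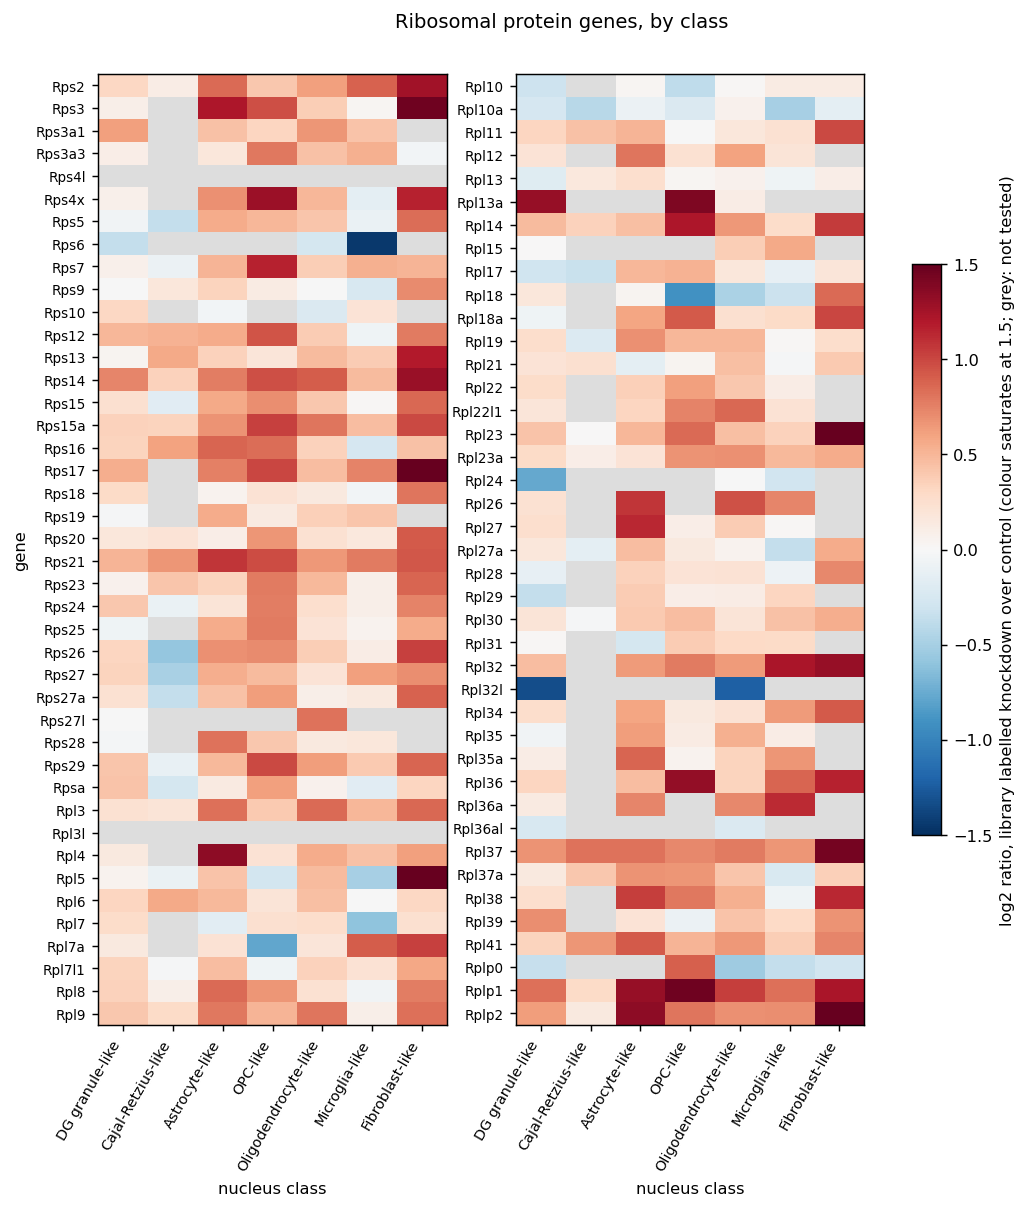
Log2 ratio of 83 of the genes (rows) in the 7 compared classes (columns), library labelled knockdown over control library, with red for higher and blue for lower in the library labelled knockdown and grey where fewer than 50 UMIs were counted. Rpl37 is red in all 7 columns, Rplp1 and Rplp2 are red beside a mostly blue Rplp0, and Rpl32l is the deepest blue in oligodendrocyte-like and DG granule-like nuclei.

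The sequence at the start of 5 of these genes is shown. Members called higher in many classes and members lower in oligodendrocyte-like nuclei can thus be set side by side. These 5 were picked for that reason, after their values were seen. The lines run 5′ to 3′ on the gene's strand from 50 bases before to 20 bases after the annotated start, and capitals mark the longest run of pyrimidines within 20 bases of that start. The first 3 genes were called higher in at least 6 classes, and the last 2 stood lower in oligodendrocyte-like nuclei, with intervals below 0. Neither of the last 2 passed the 1.5-fold bound there. Elsewhere Rplp0 was called higher in OPC-like nuclei, and Rpl18 higher in fibroblast-like and lower in OPC-like nuclei.
Rpl37: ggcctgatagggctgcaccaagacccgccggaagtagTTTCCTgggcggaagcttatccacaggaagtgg
Rplp2: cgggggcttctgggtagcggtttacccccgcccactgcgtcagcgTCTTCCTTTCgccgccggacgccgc
Rps21: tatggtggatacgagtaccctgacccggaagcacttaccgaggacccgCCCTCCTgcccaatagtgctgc
Rplp0: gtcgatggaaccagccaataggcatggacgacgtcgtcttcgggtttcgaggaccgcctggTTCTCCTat
Rpl18: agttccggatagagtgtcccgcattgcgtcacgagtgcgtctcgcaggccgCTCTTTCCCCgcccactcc
These come from RefSeq on GRCm38.p6, another build than that of the count tables, at chr15:5116563-5116632 for Rpl37, chr7:141447601-141447670 for Rplp2, chr2:180257329-180257398 for Rps21 (the first of its 2 annotated starts), chr5:115559417-115559486 for Rplp0 and chr7:45718021-45718090 for Rpl18, all on the + strand. The run measured 6, 10, 7, 7 and 10 bases in the order of the lines, so its length did not set the last 2 genes apart.

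Promoters of 63 members were at hand, in 75 windows from 250 bases before to 50 bases after a start. A pyrimidine run of at least 8 bases within 20 bases of the start was found in 42.7% of the members' windows and in 16% of all 32851 windows. The letters CCGGAAG, the core that ETS-family factors bind, were found on either strand in 34.7% of the members' windows and 8.86% of all windows, Rpl37 and Rps21 among them. AAGATGG, which holds the core of the YY1 site and often covers the start codon of these genes, was found in 16% and 6.34%, and GGGCGG, the core of the Sp1 site, in 60% and 35.7%. A palindrome of 10 letters known as the CGCG element, bound by the factor BANP, was found in 9.33% of members' windows and in 0.466% of all. TATAAA was found in 10.7% and 13.6%. None of these motifs contains another, CCGGAAG and AAGATGG can share the letters AAG, and a match describes letters, not binding.

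Few members were lower. Rpl32l was called lower in both classes in which it was tested, and the other calls were Rpl24 in DG granule-like, Rpl7a and Rpl18 in OPC-like and Rpl7 and Rps6 in microglia-like nuclei. Rpl24, of the large subunit, stood at 8.5 CPM in the library labelled knockdown and 14.5 CPM in the control library, a log2 ratio of -0.77 (-1.23 to -0.29). Rps6, the small subunit protein phosphorylated downstream of TOR, rested on 6 UMIs in the library labelled knockdown and 72 in the control library, or 10.2 CPM in the library labelled knockdown and 29.9 CPM in the control library. For Rpl7, with 16 and 102 UMIs in the same order, the interval of the log2 ratio (-1.5 to 0.13) included 0. In DG granule-like nuclei, Rpl29, Rpl10, Rpl17, Rpl10a and Rpl13, all of the large subunit, had the lowest ratios of the members with at least 100 UMIs in the library where their level was higher, between -0.36 and -0.19, none past the bound. By the same rule Rpl10a and Rpl5 were the lowest after Rpl7 in microglia-like nuclei, both at -0.50 (-1.04 to -0.03) from 40 UMIs in the library labelled knockdown and 234 in the control library.

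Among the highest in DG granule-like nuclei was Rpl13a, the large subunit protein known in human monocytic cells for a translational silencing role outside the ribosome. It stood at 9.62 CPM in the library labelled knockdown and 3.79 CPM in the control library, a log2 ratio of 1.30 (0.59 to 2.19) that rests on 16 UMIs in the control library. Rpl39, which lines the exit tunnel of the large subunit, stood there at 18.3 CPM in the library labelled knockdown and 11.1 CPM in the control library. In oligodendrocyte-like nuclei the highest after Rplp1 were Rpl26 (0.96), Rps14 (0.91), Rpl22l1 (0.86) and Rpl3 (0.85) on the log2 ratio scale, Rpl3 being a core protein near the peptidyl transferase centre. In astrocyte-like nuclei only 14 of 75 members tested had at least 100 UMIs in the library where they were higher. Among these 14 the highest after Rplp1 were Rps21 (1.08), Rpl41 (0.92), Rps2 (0.85) and Rpl37 (0.81). Of all members tested there, Rpl4 had the highest log2 ratio, 1.34. The 100-UMI rule left 7 members in OPC-like, 1 in Cajal-Retzius-like and none in fibroblast-like nuclei, too few for a full ranking.

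Rpl32l and Rps3a3 are processed copies of Rpl32 and Rps3a1 that lie inside introns of other genes, Rpl32l in Map7, a microtubule-associated protein gene, and Rps3a3 in Pde4d, a phosphodiesterase gene, on the host's strand in the GENCODE M21 annotation of GRCm38. In that annotation 3 members, these and Rps4l, are pseudogenes and 82 are protein coding, while RefSeq lists Rpl32l as protein coding. In oligodendrocyte-like nuclei Rpl32l stood at 15.7 CPM (69 UMIs) in the library labelled knockdown and 37.1 CPM (660 UMIs) in the control library, a log2 ratio of -1.23 (-1.62 to -0.88). Its host Map7 stood at 1818 CPM in the library labelled knockdown and 1991 CPM in the control library, so Rpl32l was 0.864% of Map7 UMIs in the library labelled knockdown and 1.86% in the control library. Rpl32 itself went the other way there, with 49.2 CPM in the library labelled knockdown and 31.7 CPM in the control library. Rpl32l also varied most between classes: it had 0 UMIs in fibroblast-like and microglia-like nuclei of the library labelled knockdown, and stood at 0.843 CPM (2 UMIs) in astrocyte-like nuclei of the control library, with oligodendrocyte-like nuclei at its top in both libraries.

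Rps3a3 showed no such difference from the other members. It stood at 42.4 CPM in the library labelled knockdown and 31.3 CPM in the control library in oligodendrocyte-like nuclei, and was 13.9% of Pde4d UMIs in the library labelled knockdown and 9.27% in the control library. Whether UMIs of either copy came from the copy, from the parent mRNA or from the host's unspliced RNA was not tested. Without the 3 pseudogenes the summed log2 ratios were 0.24 in DG granule-like, 0.41 in oligodendrocyte-like and 0.82 in fibroblast-like nuclei. A further 6 protein coding members, Rpl13, Rpl19, Rps10, Rpl24, Rpl13a and Rpl36al, overlap another gene on the same strand in that annotation.

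The paralogs, related genes named after a ribosomal protein gene, held similar parts of their pairs in both libraries in DG granule-like nuclei. Rpl7l1 made up 68.3% of its UMIs with Rpl7 in the library labelled knockdown and 67.3% in the control library in DG granule-like nuclei. Rpl22l1 made up 38.6% of its UMIs with Rpl22 in the library labelled knockdown and 40.1% in the control library in the same nuclei. The exact binomial intervals of these shares overlapped. In oligodendrocyte-like nuclei Rpl22l1 made up 46.9% of the pair in the library labelled knockdown and 39.1% in the control library. In these nuclei Rpl36al made up 22.6% of its pair with the X-linked Rpl36a in the library labelled knockdown and 36.0% in the control library, since Rpl36a stood at 27.3 CPM in the library labelled knockdown and 16.7 CPM in the control library while Rpl36al had a log2 ratio of -0.22 (-0.80 to 0.30).

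Rps27l, which p53 is known to induce in human cells, made up 12.6% of its pair with Rps27 in the library labelled knockdown and 15.3% in the control library in DG granule-like nuclei, and was highest in fibroblast-like and lowest in Cajal-Retzius-like nuclei in both libraries. Rpl3l, the muscle form of Rpl3, had its highest level in astrocyte-like nuclei of both libraries, but from 4 UMIs in the library labelled knockdown and 9 in the control library. Rpl10l and Rpl39l, known from testis, had no UMI. The 4 X-linked members, Rps4x, Rpl10, Rpl36a and Rpl39, had summed log2 ratios of 0.08 (-0.09 to 0.26) in DG granule-like and 0.36 (0.24 to 0.48) in oligodendrocyte-like nuclei. Rpl10, whose protein sits at the peptidyl transferase centre, was the only one of them called in no class. It was flat in oligodendrocyte-like nuclei, with 46.2 CPM in the library labelled knockdown and 45.8 CPM in the control library. Its log2 ratios lay between -0.38 and 0.13 in the classes in which it was tested.

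Other lists of the translation machinery differed in how near they lay to the ribosomal proteins. The 20 translation factors and other genes whose mRNAs carry a TOP tract had summed log2 ratios close to those of the members: 0.30 (0.25 to 0.35) in DG granule-like, 0.48 (0.40 to 0.57) in astrocyte-like, 0.41 (0.37 to 0.45) in oligodendrocyte-like and 0.69 (0.56 to 0.82) in fibroblast-like nuclei. Of the list, 0 of 20 tested were called in DG granule-like nuclei, 5 of 19 were higher in astrocyte-like, 7 of 20 in OPC-like and 6 of 11 in fibroblast-like nuclei, and 0 were lower in each. Of all genes tested, 9.21% were called higher in DG granule-like, 14.4% in astrocyte-like, 11.5% in OPC-like and 12.3% in fibroblast-like nuclei. The shares called lower were 5.78%, 6.22%, 6.96% and 14.3% in the same order. Eef1a1, the elongation factor that brings aminoacyl-tRNA to the ribosome, had log2 ratios of 0.50 in DG granule-like, 0.85 in astrocyte-like and 1.22 in fibroblast-like nuclei. Npm1, a nucleolar ribosome assembly protein, had 0.49, 0.64 and 1.18 in the same classes. Eef2, the translocation factor, had -0.10, -0.15 and 0.38.

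The 22 initiation factors and genes of TOR signalling to the ribosome did not go with them. Their summed log2 ratio was 0.00 (-0.03 to 0.04) in DG granule-like, -0.06 (-0.13 to 0.01) in astrocyte-like, -0.07 (-0.15 to 0.01) in OPC-like, 0.03 in oligodendrocyte-like, -0.18 (-0.26 to -0.10) in microglia-like and -0.22 (-0.35 to -0.09) in fibroblast-like nuclei. Ribosome biogenesis genes (33, such as Ncl, Fbl and Nop56) lay between, with 0.12 in DG granule-like, 0.22 in astrocyte-like, 0.28 in oligodendrocyte-like and -0.02 in fibroblast-like nuclei. The proteins of the mitochondrial ribosome (78 genes) had 0.20 in DG granule-like, 0.21 in astrocyte-like, 0.34 in oligodendrocyte-like and 0.30 in fibroblast-like nuclei. In DG granule-like nuclei this list, with an interval of 0.16 to 0.24, also lay near the 0.24 of the members.

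**Figure D4:**
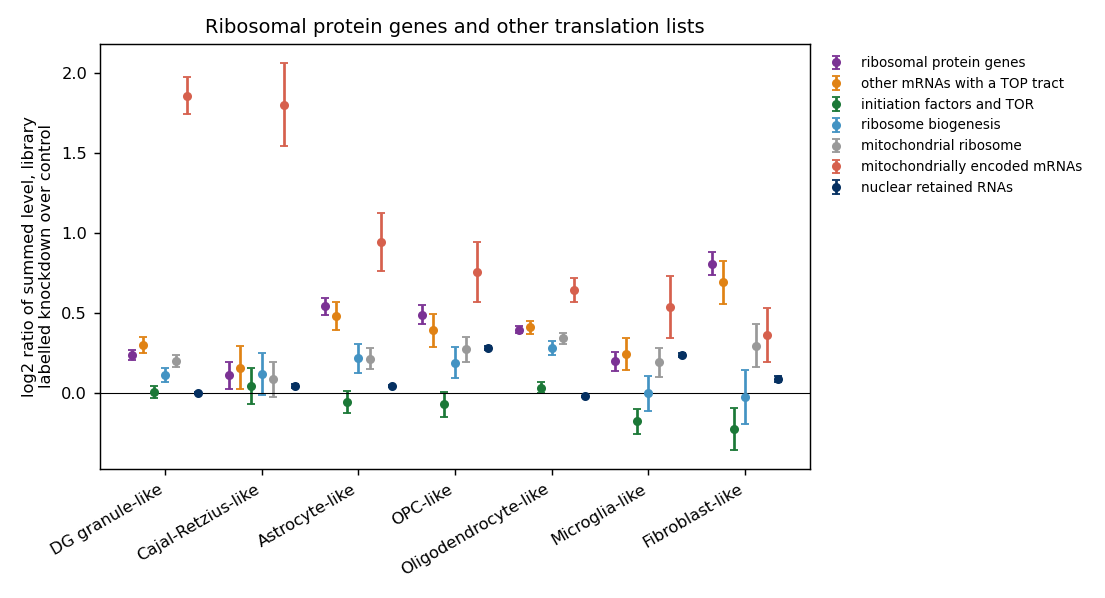
Log2 ratio of the summed level of 7 gene lists (colours), library labelled knockdown over control library (y axis), in each compared class (x axis), with exact 95% counting intervals. The ribosomal protein genes and the other TOP mRNAs lie near each other in most classes. They stand at 0.49 and 0.39 in OPC-like and at 0.81 and 0.69 in fibroblast-like nuclei. The initiation and TOR list lies near or below 0, and the mitochondrially encoded mRNAs lie highest in all classes but the fibroblast-like one.

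Mitochondrially encoded mRNAs differed in the same direction, and by more in all compared classes but the fibroblast-like one. Their summed level in DG granule-like nuclei was 573 CPM in the library labelled knockdown and 158 CPM in the control library, a log2 ratio of 1.86 (1.74 to 1.97). There 6 of 6 genes tested were called higher, beside 9.21% of all genes. The log2 ratio was 1.80 in Cajal-Retzius-like, 0.94 in astrocyte-like, 0.76 in OPC-like, 0.65 in oligodendrocyte-like, 0.54 in microglia-like and 0.36 in fibroblast-like nuclei. Across classes the sizes did not run together: the mitochondrial ratio was smallest in fibroblast-like nuclei, where that of the ribosomal proteins was largest. A list of 10 RNAs retained in the nucleus, led by Malat1, had a summed log2 ratio of 0.00 (-0.01 to 0.01) in DG granule-like, 0.04 in Cajal-Retzius-like, 0.04 in astrocyte-like, -0.02 in oligodendrocyte-like and 0.09 in fibroblast-like nuclei. It was 0.28 (0.27 to 0.29) in OPC-like and 0.24 (0.22 to 0.25) in microglia-like nuclei, which in microglia-like nuclei was above the 0.20 of the ribosomal protein genes there. Malat1 alone made up 12.2% of all UMIs in astrocyte-like nuclei of each library, so the sum there follows it. By single genes the median log2 ratio of the list there was 1.15, with 5 of 9 tested called higher and 0 lower. Of all genes there, 14.4% were called higher and 6.22% lower. In DG granule-like nuclei the median was 0.16, with 1 of 10 higher and 1 lower, against 9.21% and 5.78% of all genes. The part of these RNAs in the result was not tested.

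The level also varied with depth, as shallow nuclei mostly had higher ribosomal protein levels. By median UMIs, nuclei of the library labelled knockdown were shallower in every compared class except the Cajal-Retzius-like class. DG granule-like medians were 6321.5 UMIs in the library labelled knockdown and 7215.5 in the control library. Cajal-Retzius-like medians were 4668 and 3158 UMIs in the same order. Outside that class the shallower library was thus the library with the higher level. In oligodendrocyte-like nuclei of the library labelled knockdown the ribosomal protein level was 5443 CPM in nuclei with 800 to 2000 UMIs, 4463 CPM with 2000 to 4000 and 3460 CPM with 4000 to 8000. In the control library it was 4360, 3587 and 3068 CPM over the same ranges. At each depth the library labelled knockdown was the higher one. Over all 7 classes there were 16 ranges with at least 20 nuclei in each library, and the library labelled knockdown was higher in 16 of them, with counting intervals apart in 14. The gap was smallest in the deepest DG granule-like nuclei, with 8000 to 16000 UMIs, at 2605 CPM in the library labelled knockdown and 2536 CPM in the control library, and in Cajal-Retzius-like nuclei with 4000 to 8000 UMIs, at 2978 CPM in the library labelled knockdown and 2956 CPM in the control library. The median number of member UMIs per nucleus was 19 in the library labelled knockdown and 18 in the control library in DG granule-like nuclei, and 14 in the library labelled knockdown and 10 in the control library in Cajal-Retzius-like nuclei. The medians were 10 in the library labelled knockdown and 8 in the control library in astrocyte-like and in microglia-like nuclei, and 10 in the library labelled knockdown and 9 in the control library in OPC-like nuclei. It was 9 in the library labelled knockdown and 8 in the control library in oligodendrocyte-like nuclei, and 11 in the library labelled knockdown and 10 in the control library in fibroblast-like nuclei.

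**Figure D5:**
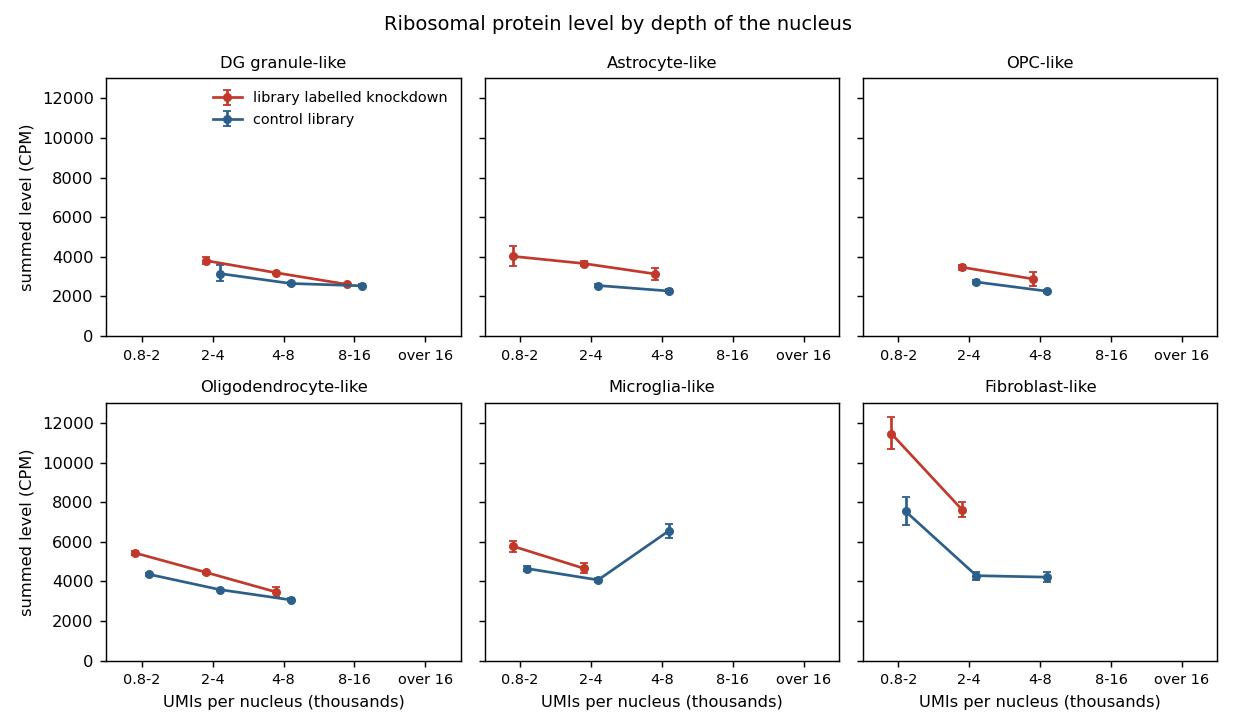
Summed level of the ribosomal protein genes (y axis, CPM) by UMIs per nucleus (x axis, in units of 1000) in 6 classes, with exact 95% counting intervals and only points with at least 20 nuclei. The library labelled knockdown lies above the control library wherever both have a point, by least in DG granule-like nuclei with 8000 to 16000 UMIs (2605 and 2536 CPM).

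In 2 classes different clusters held the nuclei of each library. Of 2086 oligodendrocyte-like nuclei of the library labelled knockdown, 1995 lay in a cluster with 31 control nuclei, where the level was 4819 CPM in the library labelled knockdown and 4650 CPM in the control library, with overlapping intervals. The largest cluster of control nuclei, with 2573, held 27 of the library labelled knockdown, at 5461 CPM in the library labelled knockdown and 4048 CPM in the control library. Cajal-Retzius-like nuclei fell into a cluster with 108 nuclei of the library labelled knockdown and 24 of the control library, at 2995 CPM in the library labelled knockdown and 2736 CPM in the control library, and one with 67 and 162 nuclei, at 4195 CPM in the library labelled knockdown and 3112 CPM in the control library. The first was named on weaker grounds, with 3 markers of the class among its leading 100 genes and 1 in its top 10, beside 1 of another class. The second had 8 among its leading 100 genes and 6 in its top 10, beside 0 of another class. The class thus compares largely different clusters. In all, 11 clusters of the compared classes had at least 20 nuclei of each library, and the level was higher in the library labelled knockdown in 11 of them, with intervals apart in 9. This rule left out oligodendrocyte-like clusters with 1533, 1277, 834 and 811 control nuclei. They held 13, 19, 13 and 19 nuclei of the library labelled knockdown in the same order. Over all clusters, named or not, 23 had at least 20 nuclei of each library. The level was higher in the library labelled knockdown in 19 of these, with intervals apart in 13, and lower in 4, with intervals apart in the striatal medium spiny neuron-like one.

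Oligodendrocyte markers, 13 genes, were found in the other 6 compared classes, with a summed level in DG granule-like nuclei of 1006 CPM in the library labelled knockdown and 2517 CPM in the control library, and none of the 13 at 0 in either. In astrocyte-like nuclei their level was 808 CPM in the library labelled knockdown and 2808 CPM in the control library. GABAergic markers, 15 genes, differed less in DG granule-like nuclei, at 1684 CPM in the library labelled knockdown (none at 0) and 1813 CPM in the control library (1 at 0). A share of each library's average RNA, set by markers of other cells, was also subtracted from each class. At the lower quartile of those markers the log2 ratios were 0.29 in DG granule-like, 0.69 in astrocyte-like and 0.49 in oligodendrocyte-like nuclei. Each was larger than without the subtraction. Ribosomal protein UMIs averaged 0.276% of UMIs in the library labelled knockdown and 0.328% in the control library. DG granule-like (0.301% and 0.255%) and astrocyte-like nuclei (0.361% and 0.248%) lay above the first average and below the second. In them any share subtracted raises the ratio by arithmetic, so the increase says nothing of RNA from other cells. The part of RNA from other cells in the result was not tested.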

How the data were processed

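The authors deposited 2 tables of raw UMI counts per gene and barcode, 1 per library, written by Cell Ranger 9.0.1, as given per the file headers; the submitters' processing notes name GRCm39 and also list Seurat 4.1.0 and bcl2fastq 5.0.1. Nuclei were dounced, stained with propidium iodide, sorted and captured with 10x 3′ chemistry, per the labels' protocols. Not given in the sources used here: intron counting, the treatment of reads matching several genes, the number of mice and the deleted part of Bcas2. All 55357 features name genes.

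From these counts, barcodes were kept as nuclei from 500 genes and 800 UMIs on, if mitochondrial UMIs stayed under 5%. Scrublet in scanpy 1.11.5 marked doublets, 7.97% in the library labelled knockdown at its automatic threshold; in the control library that threshold marked 0.016%, so the nuclei with the highest scores at the expected rate (10.6% marked) were removed instead. Counts scaled to 10000 UMIs were clustered over both libraries (2000 variable genes without the ribosomal protein genes, 30 components, 15 neighbours, Leiden resolution 1; igraph 0.11.9, leidenalg 0.10.2). Of 32 clusters, 5 stayed unnamed. Levels are summed UMIs per 1000000 UMIs of a class, with exact Poisson intervals, and ratios have exact conditional binomial intervals, both 95% and for counting error only. With 1 library per group no test was run. Genes with 50 UMIs in a class were compared, with 0.5 UMI added. TMM factors came from edgeR 4.0.16. The ratio step was tested on simulated data. Python 3.11.15, numpy 2.4.6, pandas 2.3.3 and scipy 1.17.1 were used.

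The members and gene lists were chosen with earlier results of these data known. Members named are the 10 with the most UMIs, per class the 5 highest and 5 lowest ratios with at least 100 UMIs in the library where they are higher, the P stalk, paralogs and X-linked members, those next to the 50-UMI minimum, and the 5 with the widest range between classes in both libraries; others, and the promoters printed, were chosen after their values were seen. A few of the genes these rules take are not reported here by name, although sums and counts include them. Promoters and gene types come from RefSeq (GRCm38.p6) and GENCODE M21 (GRCm38) by symbol, and no coordinate of another build was joined to the counts. Alternatives covered the filters on nuclei, doublets, clustering, scaling, depth, sex of the nuclei, free RNA, the minimum of UMIs and the pseudogene members.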

Additional observations from a re-analysis of the deposited data

Results flagged for a closer look

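Rpl18 and Rpl7a, both of the large subunit, were at least 1.5-fold apart between libraries in opposite directions in 2 classes. Rpl18 had a log2 ratio, library labelled knockdown over control library, of 0.85 in fibroblast-like nuclei (30 UMIs in the library labelled knockdown and 39 in the control library) and -0.91 in OPC-like nuclei (16 UMIs in the library labelled knockdown and 81 in the control library). Rpl7a had 1.02 in fibroblast-like nuclei and -0.78 in OPC-like nuclei, where it had 18 UMIs in the library labelled knockdown and 83 in the control library. The differences between the classes were not tested.

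Ribosomal protein UMIs were also found in barcodes outside the compared classes. Barcodes removed by the filters stood at 9891 CPM in the library labelled knockdown (3264 barcodes) and 7669 CPM in the control library (93 barcodes). An unnamed cluster of shallow nuclei with a median of 1044 UMIs in the library labelled knockdown stood at 7663 CPM there (909 nuclei) and 2947 CPM in the control library (37 nuclei, median 4449 UMIs). A second unnamed cluster stood at 1892 CPM in the library labelled knockdown (400 nuclei) and 1421 CPM in the control library (25 nuclei). Another stood at 2334 CPM in the library labelled knockdown (499 nuclei) and 2158 CPM in the control library (39 nuclei). The largest stood at 2252 CPM (2223 to 2282) in the library labelled knockdown (1114 nuclei) and 2259 CPM (2155 to 2366) in the control library (71 nuclei), with overlapping intervals. Pseudogenes named -ps held UMIs equal to 2.33% of member UMIs in the library labelled knockdown and 1.81% in the control library.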

How the results depend on the processing

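Of 124 alternative values of the summed log2 ratio over the 7 compared classes (library labelled knockdown over control library), 123 were above 0, 1 was below 0, and 73 lay within the counting interval of the reported value; the cause of the others was not tested unless the alternative's own construction gives it. The value below 0 was that of Cajal-Retzius-like nuclei over male nuclei, -0.053. Male nuclei otherwise gave 0.33 in DG granule-like, 0.42 in oligodendrocyte-like and 1.20 in fibroblast-like nuclei, and female nuclei 0.14 in DG granule-like, 0.33 in Cajal-Retzius-like, 0.60 in astrocyte-like, 0.41 in OPC-like, 0.32 in oligodendrocyte-like and 0.53 in fibroblast-like nuclei. TMM scaling gave 0.44 in astrocyte-like, 0.41 in OPC-like, 0.15 in oligodendrocyte-like, 0.050 in microglia-like and 0.71 in fibroblast-like nuclei, moving the median of all genes with them (to -0.18 in fibroblast-like nuclei). Median-of-ratios scaling gave 0.21 in Cajal-Retzius-like, 0.44 in astrocyte-like, 0.41 in OPC-like, 0.13 in oligodendrocyte-like, 0.053 in microglia-like and 0.69 in fibroblast-like nuclei. Subtracting free RNA at the lower quartile of its estimated share gave 0.29 in DG granule-like, 0.20 in Cajal-Retzius-like, 0.69 in astrocyte-like, 0.76 in OPC-like, 0.49 in oligodendrocyte-like, 0.29 in microglia-like and 1.00 in fibroblast-like nuclei, and at the median share 0.36, 0.27, 0.99, 0.57, 0.39 and 1.20 in the same order without OPC-like nuclei, where that share was over 100% in the control library. A stricter filter gave 0.43 in Cajal-Retzius-like, 0.34 in oligodendrocyte-like, 0.29 in microglia-like and 0.45 in fibroblast-like nuclei, and a looser one 0.43 for OPC-like, 0.27 for microglia-like and 0.47 for fibroblast-like nuclei. With doublets kept, OPC-like nuclei had 0.22 and microglia-like ones 0.30, nuclei thinned to 1000 UMIs gave 0.48 in astrocyte-like and 0.38 in OPC-like nuclei, nuclei with 2000 to 8000 UMIs gave 0.32 in oligodendrocyte-like, 0.10 in microglia-like and 0.74 in fibroblast-like nuclei, the mean CPM over nuclei gave 0.27 in microglia-like nuclei, and both clustering at resolution 0.5 and 1 cluster alone (the second chosen after seeing the data) gave 0.43 in Cajal-Retzius-like nuclei.

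Counts of members called higher ran between 6 and 16 in DG granule-like, 0 and 11 in Cajal-Retzius-like, 6 and 60 in astrocyte-like, 2 and 47 in OPC-like, 4 and 36 in oligodendrocyte-like, 4 and 28 in microglia-like and 0 and 55 in fibroblast-like nuclei; some alternatives left fewer members with enough UMIs to be compared. Apart from TMM scaling in oligodendrocyte-like and microglia-like nuclei, the share of all genes called under each alternative is not given. These ranges are therefore no result about the members. Under TMM scaling 5 members were called higher in oligodendrocyte-like and 9 in microglia-like nuclei, and under median-of-ratios scaling 4 and 9. Clustering with libraries centred gave no microglia-like or fibroblast-like class in the library labelled knockdown, a minimum of 200 UMIs left no member in Cajal-Retzius-like or fibroblast-like nuclei, and thinning left none tested in Cajal-Retzius-like nuclei. No paired analysis was possible because there is 1 library per group. Few UMIs per member and class limit single genes, and 1 library per group limits every comparison: nothing here separates the condition from the library.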
